A study of Mus musculus with 12 samples.

Results

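The proteasome subunit genes are the 44 genes in the count table whose symbol begins with Psma, Psmb, Psmc, Psmd, Psme, Psmf or Psmg followed by a number, without the immunoproteasome genes Psmb8, Psmb9 and Psmb10 and without pseudogenes. They were 44 of 14881 genes measured. The annotation holds 47 such symbols, of which Psma8, Psmb11 and Psme2b had no row in the table. One of the 44, Psmc3ip, matches by name only: it encodes a factor of meiotic recombination and is no subunit, which leaves 43 genes of the particle, its regulators and its assembly factors. By role these are 7 alpha and 7 beta subunits of the 20S core, 6 ATPases and 11 other subunits of the 19S cap, 7 assembly chaperones and 5 activators or inhibitors.

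RNA came from 12 male APPswe mice, which carry a transgene for mutant amyloid precursor protein, aged 22 to 26 months, with 1 library per mouse and 3 mice per group. Each mouse received 5 µL of an AAV1 vector into the cisterna magna, carrying mVEGF-C (mouse vascular endothelial growth factor C) or, as control, eGFP, both under the CMV promoter, which is not restricted to a cell type. Weekly intraperitoneal doses of 40 mg/kg followed, of mAdu (mAducanumab, an antibody against aggregated amyloid beta) or, as control, of mIgG. Mice 10 to 12 had both mVEGF-C and mAdu (mVEGF-C+mAdu), mice 7 to 9 were mVEGF-C+mIgG, mice 4 to 6 were eGFP+mAdu, and mice 1 to 3, eGFP+mIgG, had both controls. By the labels all 4 groups thus had the transgene, a vector and an antibody, and no group was untreated or wild type. Per the series title, the study asked whether the function of meningeal lymphatic vessels modifies immunotherapy directed at amyloid beta.

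Library totals ran from 23213612 to 29295266 reads. The series text gives the tissue as the hippocampus, whereas the source label names the meninges. The median level of 7 markers of hippocampal CA1 neurons was 98.8 to 121 CPM (reads of a gene scaled to a common library total) across the libraries, and that of 10 dentate granule markers was 53.7 to 69.6 CPM. For 12 markers of meningeal fibroblasts it was 6.32 to 13.5 CPM. Vegfc, the gene of the vector, was at 2.98 ± 0.407 CPM in mVEGF-C+mAdu, 2.71 ± 0.825 in mVEGF-C+mIgG, 3.29 ± 0.188 in eGFP+mAdu and 3.41 ± 0.188 in eGFP+mIgG (SD, n = 3 each), so in this tissue it did not mark the vector groups. Mice 5 and 6, both eGFP+mAdu, had 1340 and 3720 CPM of App, the mouse gene that corresponds to the transgene, against 4720 to 5510 CPM in the other mice, so these libraries, mouse 5 above all, stand apart in the gene that checks the transgene label. Mice 3, 6, 9 and 12 held the middle value of their group in 64.5 to 82.7% of the genes that varied within the group beyond counting noise. Among the proteasome genes that varied so, mouse 3 held it for 3 of 12, mouse 6 for 2 of 2, mouse 9 for 4 of 10 and mouse 12 for 1 of 2. In the tests each library counts as its own mouse. Changes of Psmc6, Psmb9, Psmb8 and Uba6 are also given without mice 3, 6, 9 and 12 and without mice 5 and 6. The first leaves fewer mice in every group, and the second leaves mouse 4 alone in eGFP+mAdu.

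The proteasome degrades proteins tagged with ubiquitin. Its 20S core is a barrel of alpha rings, which gate the entrance, and beta rings, in which Psmb5, Psmb6 and Psmb7 carry the catalytic sites. The 19S cap recognises ubiquitin, removes it and unfolds the substrate with a ring of ATPases. Interferon induces Psmb8, Psmb9 and Psmb10, which replace the catalytic subunits in the immunoproteasome. In neurons the proteasome takes part in synaptic protein turnover. Transcription of the subunits is known to be raised together by the factor Nfe2l1 when proteasome activity is short.

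RefSeq promoters on GRCm38.p6, from 250 bases before to 50 bases after the RefSeq start, were available for 37 of the 44 genes. Those of Psmc6, the ATPase that gave the one change to pass the test, of Psmd12, the lid subunit next to it in the same comparison, and of Psmb6, the most abundant subunit per length, are shown. They lie on the plus strand at chr14:45329574-45329873, chr11:107479278-107479577 and chr11:70525107-70525406, and capitals mark matches to TGACNNNGC, the core of the antioxidant response element to which Nfe2l1 and its relatives bind, and to CCGGAA, the core bound by ETS factors, on either strand.
Psmc6: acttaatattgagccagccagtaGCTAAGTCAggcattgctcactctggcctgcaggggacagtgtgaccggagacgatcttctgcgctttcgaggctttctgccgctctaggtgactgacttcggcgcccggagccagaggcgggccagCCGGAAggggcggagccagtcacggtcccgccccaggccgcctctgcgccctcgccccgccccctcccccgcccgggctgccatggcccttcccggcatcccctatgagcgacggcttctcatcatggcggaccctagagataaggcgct
Psmd12: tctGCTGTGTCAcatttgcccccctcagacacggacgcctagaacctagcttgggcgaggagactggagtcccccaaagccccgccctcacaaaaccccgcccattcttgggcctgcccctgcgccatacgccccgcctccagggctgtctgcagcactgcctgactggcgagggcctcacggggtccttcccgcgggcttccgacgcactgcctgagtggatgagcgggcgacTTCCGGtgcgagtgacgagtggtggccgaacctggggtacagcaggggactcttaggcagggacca
Psmb6: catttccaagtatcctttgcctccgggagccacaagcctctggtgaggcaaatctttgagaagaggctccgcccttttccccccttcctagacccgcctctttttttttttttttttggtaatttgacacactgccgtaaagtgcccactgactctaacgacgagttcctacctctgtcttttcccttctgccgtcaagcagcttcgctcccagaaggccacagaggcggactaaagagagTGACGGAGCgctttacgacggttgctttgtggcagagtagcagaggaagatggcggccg
Counted from the RefSeq start on which each window is built, which is not the GENCODE gene start given for Psmc6 further on, the match to TGACNNNGC begins 227 bases before the start in Psmc6, 247 before it in Psmd12 and 9 before it in Psmb6. The match to CCGGAA begins 100 bases before the RefSeq start in Psmc6 and 16 before it in Psmd12.

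CCGGAA was found in 21 of the 37 promoters (56.76%), among them Psma2, Psma5, Psmb4, Psmc1, Psmc2, Psmd2, Psmd4, Psmd11 and Psmf1, against 28.85% of 11262 genes with a promoter in the table. TGACNNNGC was found in 6 of the 37 (16.22%), against 16.68% of all genes, namely in Psmb5, Psmb6, Psmc6, Psmd9, Psmd12 and Psme4. Other motifs were searched in the same windows. CCAAT stood in 35.14% of the promoters against 42.56% of all genes, a nuclear respiratory factor palindrome in 18.92% against 10.75%, an interferon-stimulated response element core in 13.51% against 3.55%, and TTCNNNGAA in 5.41% against 8.02%. The motifs do not overlap in the 3 promoters shown, and a match is a description of the letters only. Further, 8 of the 44 genes (18.2%) start within 1000 bases of a gene on the other strand that runs away from them, against 10.4% of all named genes. The closest pairs were Psmc2 with Dnajc2 at 32 bases, Psma2 with Mrpl32 and Psmc5 with Ftsj3 at 75 bases each, and Psma7 with Ss18l1 at 76 bases.

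Levels of the subunits were high and similar between mice. Together the 44 genes took 3331 to 3475 CPM of a library. Per kilobase of the principal transcript, the median was 47.3 CPM for the 44 genes, against 7.44 for all named genes. That transcript had a median of 1435 bases in the 44 genes and 3046 in all named genes. Whether reads scaled with length in this amplified RNA was not tested. Beta subunits had a median of 71.1 CPM per kilobase and ranged from 57.9 for Psmb5, the chymotrypsin-like site, to 120 for Psmb6, the caspase-like site. Psmb7, the trypsin-like site, stood at 105. Alpha subunits had a median of 57.5, between Psma2 at 34.4 and Psma7 at 92.7. The ATPases had a median of 79.9, with Psmc6 and Psmc2 lowest at 47.3 each and Psmc3 highest at 106. Of the other cap subunits, Psmd2, the large scaffold of the base, was highest at 89.0, and Psmd11, a lid subunit, lowest at 10.3. The ubiquitin receptor Psmd4 was at 83.7 and the deubiquitinating enzyme Psmd14 at 69.8.

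Classes that are not built into the standard particle had lower medians per kilobase. The assembly chaperones had a median of 9.48 CPM per kilobase, from Psmg3 at 6.08 to Psmd5 at 13.6. Among the regulators, the 11S activator genes Psme1, Psme2 and Psme3 were at 28.2, 18.8 and 23.6, the activator Psme4 at 9.63 and Psmf1, an inhibitor of the core in vitro, at 7.00. Psmc3ip was at 1.75. In bulk RNA fewer cells of a type and less RNA per cell cannot be told apart.

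**Figure D1:**
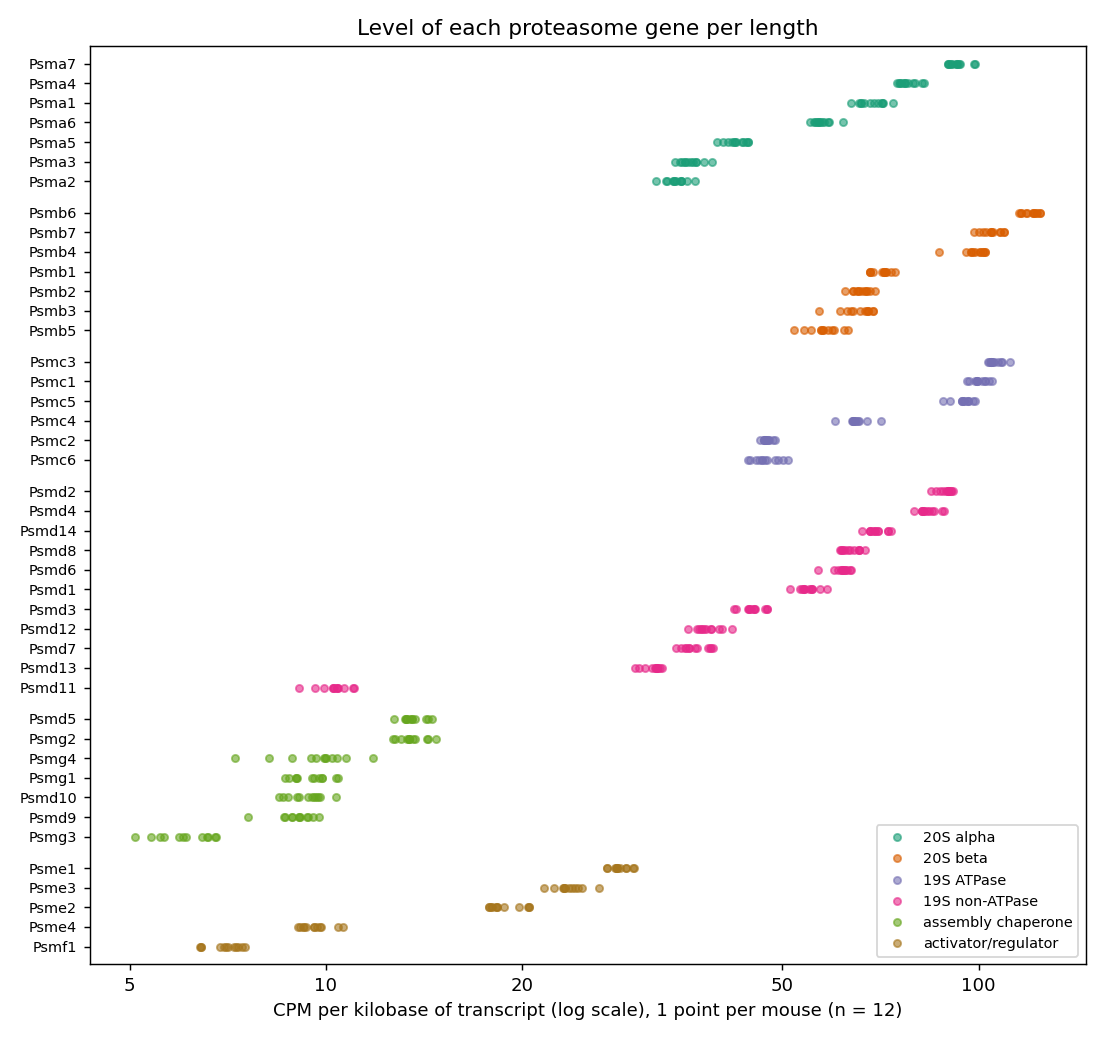
Level of each of 43 proteasome genes (without Psmc3ip) in CPM per kilobase of transcript (log axis), 1 point per mouse for all 12 mice, sorted and coloured by role. Points of a gene lie close together, and the classes differ: beta subunits reach 120 CPM per kilobase for Psmb6, chaperones only 13.6 for Psmd5.

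Between mice, the highest level of a gene was 1.14 times the lowest at the median of the 44 genes. The ratio was smallest for Psmc2, at 1.05, and largest for Psmg4, at 1.63. Psmc2 had 84.8, 83.6 and 87.1 CPM in mVEGF-C+mAdu, 85.2, 86.5 and 83.6 in mVEGF-C+mIgG, 83.6, 84.2 and 84.0 in eGFP+mAdu and 84.9, 82.6 and 84.0 in eGFP+mIgG. All 4 groups overlapped for this gene. In the 31 core and cap subunits the ratio lay between 1.05 and 1.21. The median SD within a group, in log2 CPM, was 0.0458 for the 44 genes and 0.0913 for all genes, which are on average less abundant. Mouse 8 (mVEGF-C+mIgG) had the lowest value of the 12 mice for 16 of the 44 genes, and its mean level lay 0.051 log2 units below the average of the 12 mice, while the other mice lay between -0.024 and 0.030. For the 14 core subunits it lay 0.076 below and for the chaperones 0.141 below. In the same mouse the ATPases were at -0.006, and the activators and inhibitors at 0.065, the highest of the 12 mice.

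The combined treatment, mVEGF-C+mAdu against eGFP+mIgG, was the comparison in which a subunit changed. Psmc6, an ATPase of the 19S base, had 112, 109 and 114 CPM in mVEGF-C+mAdu, 103, 104 and 110 in mVEGF-C+mIgG, 104, 105 and 106 in eGFP+mAdu and 99.2, 99.9 and 102 in eGFP+mIgG. All 3 mice with both treatments lay above all 3 mice with neither, and mice with 1 treatment lay between them or reached into the range of the first. The log2 change was 0.152 (SE 0.037, 95% interval 0.074 to 0.231), 1.11-fold, with an adjusted p of 0.0438 by edgeR's quasi-likelihood test (Benjamini-Hochberg, all genes). It was the 1 of 44 genes to pass, against 2.18% of all genes in this comparison. In GENCODE the gene lies on chr14 between 45329788 and 45349705 of GRCm38.

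The call on Psmc6 was close to the threshold. It held with DESeq2 size factors (adjusted p 0.044), in the DESeq2 Wald test (0.0269) and with only the groups compared (0.0362). It also held in limma-voom (adjusted p 0.00335), which called 2660 of all genes there. Of 12 fits that each left out 1 library it held in 4, with adjusted p from 0.0292 to 0.18. Without mice 3, 6, 9 and 12 the call was lost (log2 change 0.150, SE 0.054, adjusted p 0.56). Of all genes 2 were called in that smaller fit, against 324 with all mice. Without mice 5 and 6, which leaves mouse 4 alone in eGFP+mAdu, the log2 change was 0.153 and the call was also lost. With trends of the libraries on transcript length and GC content removed, the log2 change was 0.044 with an adjusted p of 0.53. The mean level of 9 choroid plexus markers was -0.639, -0.155 and -0.220 log2 units in mVEGF-C+mAdu, against -0.044 to 0.247 in the other 9 libraries, and with that level as a covariate Psmc6 was at 0.151 with an adjusted p of 0.49. Each treatment alone gave a smaller value for Psmc6 that did not pass. The log2 change was 0.075 for mVEGF-C+mIgG against eGFP+mIgG (adjusted p 0.635) and 0.062 for eGFP+mAdu against eGFP+mIgG (adjusted p 0.644). It was 0.091 for mVEGF-C+mAdu against eGFP+mAdu and 0.077 for mVEGF-C+mAdu against mVEGF-C+mIgG (adjusted p 0.275 and 0.402). These comparisons share their control mice. The interaction of the 2 treatments was 0.016 (adjusted p 0.989).

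**Figure D2:**
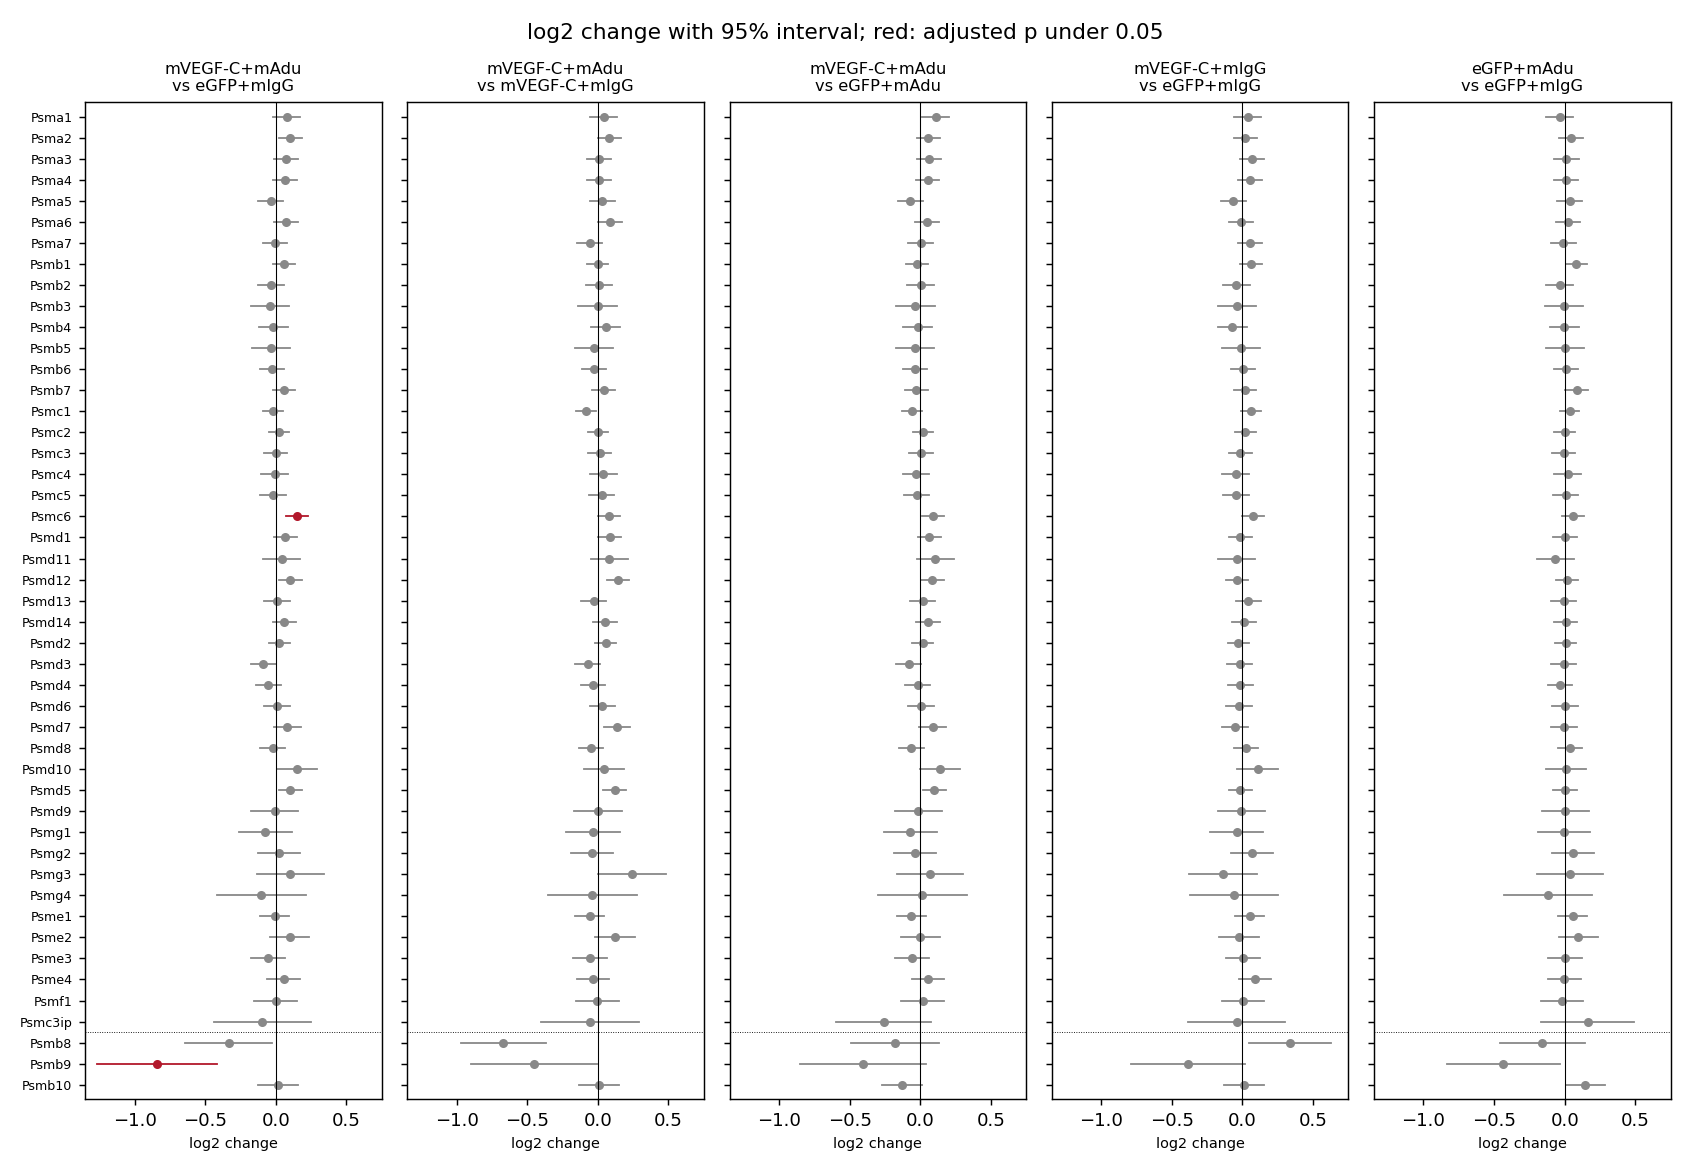
Log2 change of each of the 44 genes, with Psmb8, Psmb9 and Psmb10 below the dotted line, in 5 comparisons between groups (points, with 95% intervals of edgeR's fit; red where the adjusted p is under 0.05). Psmc6 at 0.152 and Psmb9 at -0.841, both in mVEGF-C+mAdu against eGFP+mIgG, are the points that passed.

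The other 43 genes did not pass in this comparison. The 44 log2 changes ran from -0.101 to 0.152 with a median of 0.009, beside a median of -0.004 over all genes, and 23 of 44 were positive, against 48.9% of all genes. At an unadjusted p under 0.05 there were 6 of 44 genes, against 20.4% of all genes. The groups did not overlap for 9 genes that were higher in mVEGF-C+mAdu and 2 that were lower, beside 13.9% and 13.4% of all genes. The 95% interval lay within 0.2 log2 units of 0, a factor of 1.15, for 37 of 44 genes and within 0.3 units, a factor of 1.23, for 41.

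The next smallest p among higher genes belonged to Psmd12, a lid subunit. It had 79.7, 76.2 and 77.0 CPM in mVEGF-C+mAdu, 71.6, 68.3 and 70.9 in mVEGF-C+mIgG, 74.2, 72.2 and 72.7 in eGFP+mAdu and 70.5, 71.7 and 74.2 in eGFP+mIgG. The 3 mice with both treatments lay above all others. Against eGFP+mIgG the log2 change was 0.105 (adjusted p 0.132), and against mVEGF-C+mIgG it was 0.143 (SE 0.038, adjusted p 0.123). Psmd5, a chaperone of base assembly, Psma2, an alpha subunit, and Psmd10, a chaperone also known as gankyrin, had log2 changes of 0.105, 0.103 and 0.151 against eGFP+mIgG with adjusted p of 0.145, 0.150 and 0.220. On the lower side were Psmd3, a lid subunit, at -0.089 (adjusted p 0.242) and Psmd4, the ubiquitin receptor, at -0.052 (adjusted p 0.516). Psmd3 had 90.7, 96.4 and 91.4 CPM in mVEGF-C+mAdu and 101, 97.2 and 97.7 CPM in eGFP+mIgG, which did not overlap.

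By role, the alpha subunits had a median log2 change of 0.074 with 5 of 7 positive, and the beta subunits of -0.024 with 2 of 7 positive, against 48.9% of all genes. The GC content of the transcripts ran from 39.4 to 51.6% in the alpha and from 44.7 to 56.6% in the beta subunits. Its part in these medians was not tested. The ATPases had a median of -0.004, the other cap subunits of 0.027, the chaperones of 0.022 and the activators and inhibitors of -0.001. None of the catalytic subunits passed: Psmb5, Psmb6 and Psmb7 had log2 changes of -0.035, -0.024 and 0.060 with adjusted p of 0.810, 0.790 and 0.396. For Psmb6 the levels were 92.6, 98.2 and 92.6 CPM in mVEGF-C+mAdu and 94.3, 97.1 and 96.7 CPM in eGFP+mIgG, which overlapped. Psmd14 was at 0.062, Psmf1 at -0.001 and Psme1, Psme2, Psme3 and Psme4 were at -0.007, 0.098, -0.056 and 0.056, with adjusted p between 0.391 and 0.996.

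mAdu against mIgG under mVEGF-C gave no call among the 44 genes, against 0.208% of all genes. At an unadjusted p under 0.05 there were 5, beside 12.7% of all genes. They were Psmd12, given above, Psmd5 (log2 change 0.119), the lid subunit Psmd7 (0.135), the base scaffold Psmd1 (0.083) and the ATPase Psmc1 (-0.081), with adjusted p of 0.206, 0.206, 0.388 and 0.311 for the last 4. With limma-voom the count of calls was 5 of 44, beside 1234 of 14881 genes. On the lower side Psmd3 followed Psmc1, at -0.070 (adjusted p 0.525). Psmd7 had 60.8, 61.9 and 61.2 CPM in mVEGF-C+mAdu and 56.9, 56.2 and 54.4 CPM in mVEGF-C+mIgG. Psmc1 had 158, 153 and 154 CPM in mVEGF-C+mAdu and 161, 167 and 165 CPM in mVEGF-C+mIgG. Neither gene overlapped between the groups, while the median over the 44 genes was 0.009. The value farthest from 0 was that of the chaperone Psmg3, at 0.239 (adjusted p 0.397), with 5.34, 5.98 and 5.96 CPM in mVEGF-C+mAdu and 5.38, 4.77 and 4.50 CPM in mVEGF-C+mIgG, which overlapped. Groups did not overlap for 6 genes on the higher and 2 on the lower side, beside 8.37% and 8.12% of all genes. The median was -0.039 for 78 cytosolic ribosomal protein genes and 0.002 for 79 nuclear genes of the respiratory chain, and the differences between these lists were not tested.

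mAdu against mIgG under eGFP likewise gave no call among the 44 genes, against 0.0336% of all genes. Psmb1, a beta subunit without a catalytic site, and Psmb7 were the 2 genes at an unadjusted p under 0.05, beside 9.21% of all genes. Their log2 changes were 0.084 and 0.086 with adjusted p of 0.493 and 0.500. Psmb1 had 129, 126 and 127 CPM in eGFP+mAdu and 120, 121 and 120 CPM in eGFP+mIgG, which did not overlap. On the lower side Psmd11 was at -0.065 and Psmd4 at -0.034. The value of Psmd4 was 0.052 without mice 5 and 6, where mouse 4 alone is left in eGFP+mAdu. Groups did not overlap for 5 genes that were higher and 0 that were lower, beside 7.63% and 7.78% of all genes.

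mVEGF-C against eGFP under mIgG gave no call and 0 of 44 genes at an unadjusted p under 0.05, against 0.0403% and 7.91% of all genes. Psmc6 (0.075) and Psmc1 (0.060) had the smallest p on the higher side, Psma5 (-0.065) and Psmb4 (-0.072) on the lower, with adjusted p from 0.635 to 0.736. Groups did not overlap for 4 genes that were higher and 2 that were lower, beside 6.38% and 5.99% of all genes. mVEGF-C against eGFP under mAdu gave no call, against 0.047% of all genes, and 4 genes at an unadjusted p under 0.05, beside 14.3%. These were Psma1 at 0.112, Psmd5 at 0.101, Psmc6 at 0.091 and Psmd12 at 0.087, with adjusted p from 0.246 to 0.302. Psma1, an alpha subunit, had 88.8, 82.9 and 85.5 CPM in mVEGF-C+mAdu and 82.0, 76.7 and 79.3 CPM in eGFP+mAdu, which did not overlap. The groups did not overlap for 6 genes that were higher and 2 that were lower, beside 11.5% and 10.2%. The lower side held Psmd3 at -0.081 and Psma5 at -0.070, with adjusted p of 0.387 and 0.459.

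Averaged over the other treatment, the antibody gave 0 calls among the 44 genes, against 0.571% of all genes, and the vector 0, against 0.39%. limma-voom called 2 of 44 in each, beside 1681 and 1789 of 14881 genes. For the antibody 6 genes were at an unadjusted p under 0.05, beside 15.5%, led by Psmd12 at 0.080 (adjusted p 0.161) and Psmc6 at 0.069 (adjusted p 0.214), with Psmd3 at -0.039 and Psmd4 at -0.035 on the lower side. For the vector there were 5, beside 16% of all genes, led by Psmc6 at 0.083 (adjusted p 0.157) and Psmd10 at 0.125 (adjusted p 0.221), with Psma5 at -0.068 (adjusted p 0.279) and Psmd3 at -0.050 on the lower side. The interaction gave 0 calls, against 0.0134%, and 3 genes at an unadjusted p under 0.05, beside 6.82%. These were Psmd12 at 0.125, Psmd7 at 0.139 and Psmc1 at -0.116, with adjusted p of 0.706, 0.716 and 0.695. Psme1 followed on the lower side, at -0.114 (adjusted p 0.809).

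**Figure D3:**
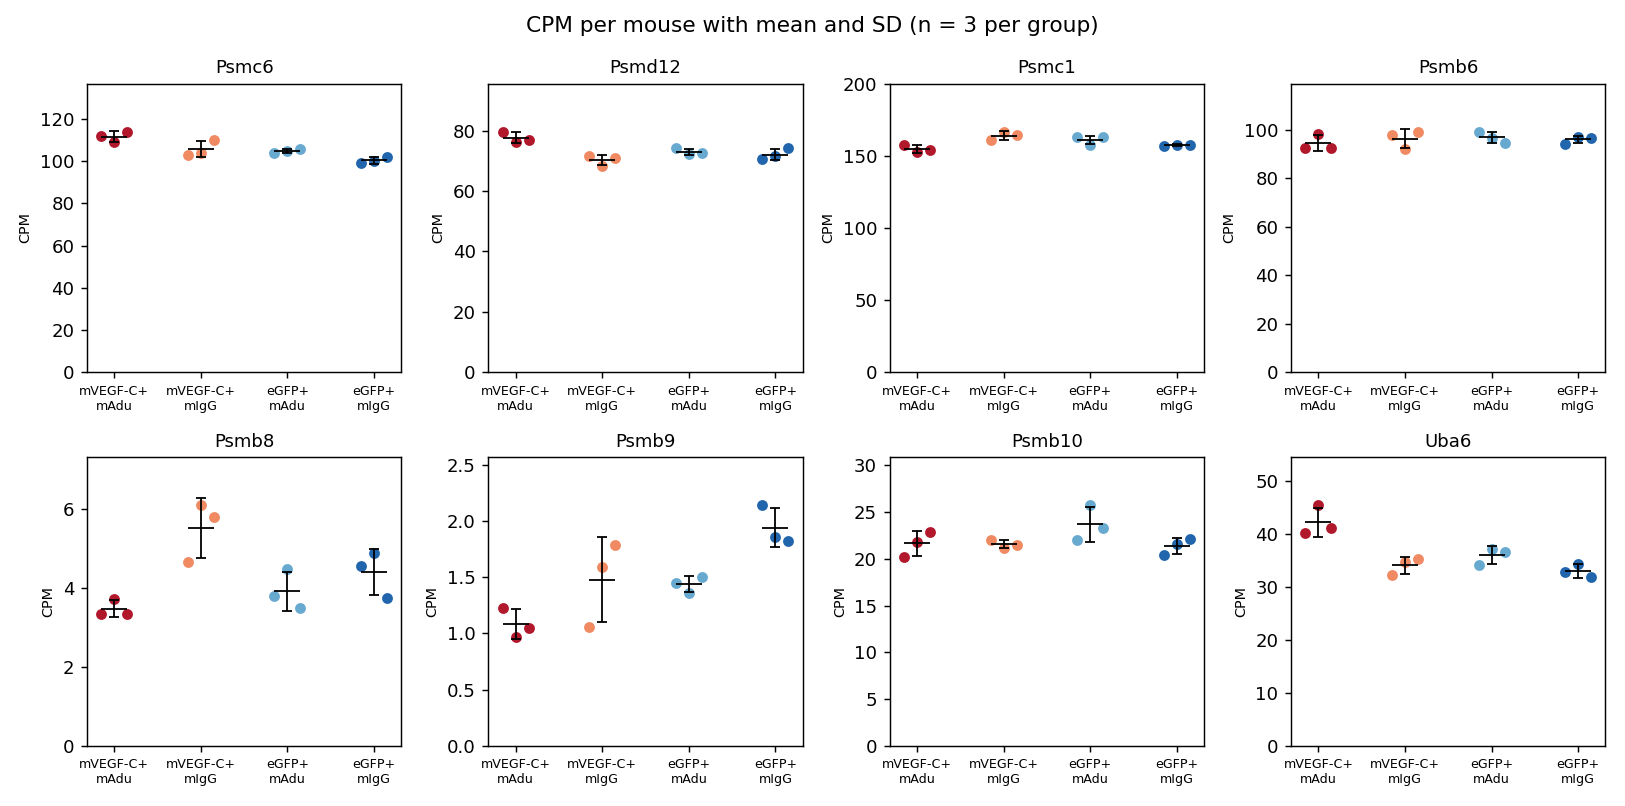
CPM in each of the 12 mice (points, with the mean and SD of each group in black, n = 3) for 4 subunits, the 3 immunoproteasome genes and Uba6, with the groups mVEGF-C+mAdu, mVEGF-C+mIgG, eGFP+mAdu and eGFP+mIgG along the axis. Psmc6 is at 109 to 114 CPM in mVEGF-C+mAdu and at 99.2 to 102 in eGFP+mIgG, and Psmb9 lies at 0.97 to 1.23 and 1.82 to 2.14 in the same groups.

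The changes of the subunits were ordered by the base composition of their transcripts. GC content ran from 37.0% in Psmc6, the poorest, to 58.3% in Psmd3, the richest. Across the 44 genes, GC content and the log2 change in mVEGF-C+mAdu against eGFP+mIgG had a Pearson correlation of -0.693 and a Spearman correlation of -0.658. All 14 genes poorest in GC, up to 46.9%, were positive, with a median of 0.074, whereas 3 of the 14 richest in GC, from 52.7%, were positive, with a median of -0.015. The points are genes of the same libraries and no independent replicates. Over all genes the same tendency was seen, with a weaker correlation. Over the same ranges of GC content 71.5% of all GC-poor genes were positive, with a median of 0.063, and 27.9% of all GC-rich genes, with a median of -0.062. The Pearson correlation was -0.285 over all named genes and -0.434 over the 11303 of them at least as abundant as the lowest of the 43 proteasome genes.

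The Pearson correlation over the 44 genes was -0.519 for mVEGF-C against eGFP under mAdu, -0.523 under mIgG, -0.276 for mAdu against mIgG under mVEGF-C and -0.189 under eGFP. Within single libraries, the mean level of the 14 GC-poor genes minus that of the 14 GC-rich genes was 0.100, 0.004 and 0.056 log2 units in mVEGF-C+mAdu, -0.023, 0.073 and -0.005 in mVEGF-C+mIgG, -0.077, -0.018 and 0.018 in eGFP+mAdu and -0.059, -0.059 and -0.011 in eGFP+mIgG. The ranges of mVEGF-C+mAdu and eGFP+mIgG did not overlap, and the groups with 1 treatment overlapped both. The same difference over all genes was 0.132, 0.019 and 0.061 in mVEGF-C+mAdu, -0.039, 0.047 and 0.042 in mVEGF-C+mIgG, -0.076, -0.016 and 0.000 in eGFP+mAdu and -0.075, -0.061 and -0.034 in eGFP+mIgG. Length and GC trends were then removed from every library. In mVEGF-C+mAdu against eGFP+mIgG, 0 of the 44 genes were called and 0 were at an unadjusted p under 0.05. Of all 14881 genes 68 were called there, against 324 with the trends kept. The base composition of the libraries and the treatment cannot be told apart in this comparison.

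**Figure D4:**
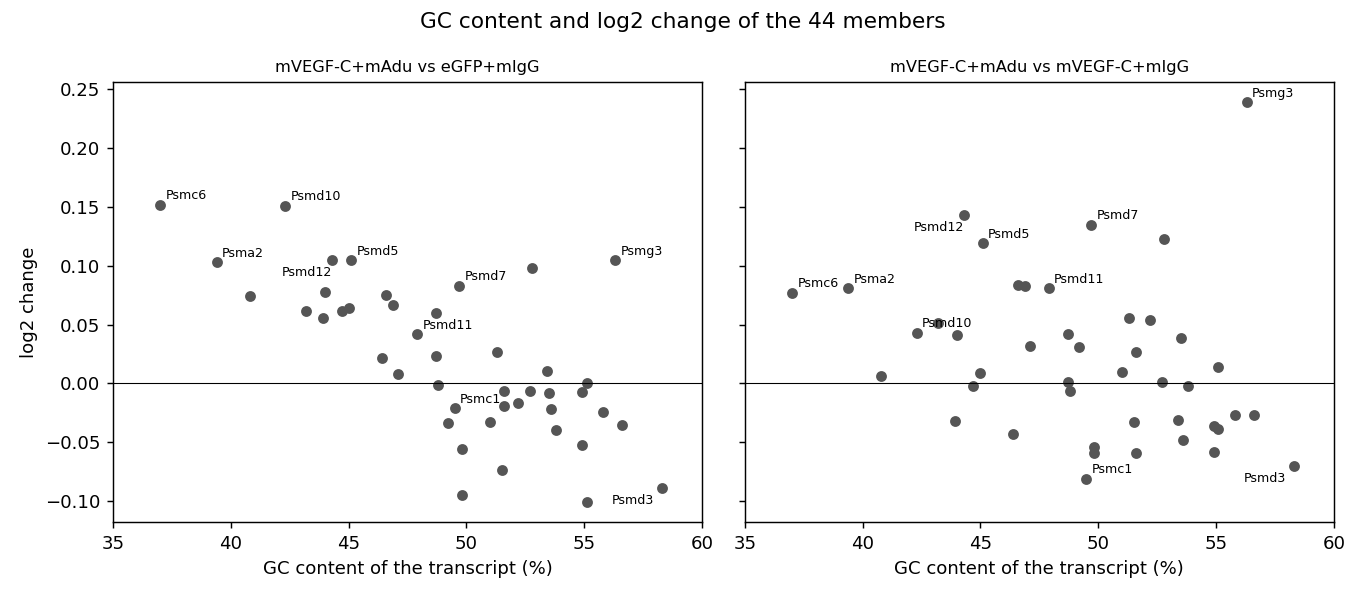
Log2 change of each of the 44 genes against the GC content of its transcript in percent, for mVEGF-C+mAdu against eGFP+mIgG and for mVEGF-C+mAdu against mVEGF-C+mIgG. In the first the genes slope downward, from Psmc6 at 37.0% GC to Psmd3 at 58.3% GC, with a Pearson correlation of -0.693, and in the second it is -0.276.

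Of the 3 immunoproteasome genes, which are outside the 44, Psmb9 fell in 1 comparison, Psmb8 was near the threshold in another and Psmb10 passed in none. Psmb9, which replaces Psmb6, had 1.23, 0.97 and 1.05 CPM in mVEGF-C+mAdu, 1.06, 1.59 and 1.79 in mVEGF-C+mIgG, 1.45, 1.36 and 1.5 in eGFP+mAdu and 2.14, 1.86 and 1.82 in eGFP+mIgG, from as few as 24 reads in a library. It fell in mVEGF-C+mAdu against eGFP+mIgG, with a log2 change of -0.841 (SE 0.201), 0.558-fold, and an adjusted p of 0.0413 in edgeR's quasi-likelihood test, with no overlap. The call held in limma-voom (adjusted p 0.00436), with only the groups compared (adjusted p 0.0346) and in 4 of 12 fits that left out 1 library (adjusted p 0.0209 to 0.176). With log2 changes about as large, it was lost in the DESeq2 Wald test (-0.843, adjusted p 0.068) and with length and GC trends removed (-0.787, adjusted p 0.0897). The call was likewise lost with the choroid plexus covariate (-0.915, adjusted p 0.469). It was also lost without mice 5 and 6 (-0.841, adjusted p 0.0682) and without mice 3, 6, 9 and 12 (-0.862, adjusted p 0.56). Psmb8, which replaces Psmb5, had 3.34, 3.72 and 3.34 CPM in mVEGF-C+mAdu, 4.64, 6.08 and 5.79 in mVEGF-C+mIgG, 3.78, 4.46 and 3.49 in eGFP+mAdu and 4.54, 4.88 and 3.75 in eGFP+mIgG. In mVEGF-C+mAdu against mVEGF-C+mIgG its log2 change was -0.669 (SE 0.141) with no overlap and an adjusted p of 0.0599 in edgeR. The adjusted p was 0.0252 in DESeq2 and 0.00195 in limma-voom, but 0.0777 with length and GC trends removed, 0.0839 without mice 5 and 6, 0.12 with only the groups compared, 0.648 with the choroid plexus covariate and 0.997 without mice 3, 6, 9 and 12, and 1 of 12 fits that left out 1 library passed. Psmb10, which replaces Psmb7, had log2 changes of 0.005 and 0.019 in the same comparisons (adjusted p 0.988 and 0.909).

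Per length, Psmb8 made up 3.60 ± 0.13% of Psmb8 plus Psmb5 in mVEGF-C+mAdu, 5.57 ± 1.19% in mVEGF-C+mIgG, 3.95 ± 0.50% in eGFP+mAdu and 4.41 ± 0.50% in eGFP+mIgG (SD, n = 3 each). Psmb9 made up 0.67 ± 0.10%, 0.90 ± 0.23%, 0.87 ± 0.06% and 1.18 ± 0.12% of Psmb9 plus Psmb6 in these 4 groups, named in that order. Psmb10 made up 12.51 to 13.95% of Psmb10 plus Psmb7 in mVEGF-C+mAdu, 13.59 to 13.92% in mVEGF-C+mIgG, 13.29 to 15.71% in eGFP+mAdu and 12.98 to 14.64% in eGFP+mIgG, so all groups overlapped. Beside these genes, 6 of 15 other class I presentation and interferon genes fell in mVEGF-C+mAdu against mVEGF-C+mIgG, and all 15 had negative values. Of all genes 0.208% were called there and 50.5% were positive. Against eGFP+mIgG 1 of the 15 fell, beside 2.18% of all genes called. The mean level of the 15 was -0.424, -0.283 and -0.313 log2 units in mVEGF-C+mAdu. It was 0.007, 0.515 and 0.319 in mice 7, 8 and 9 (mVEGF-C+mIgG), and -0.116 to 0.115 in the eGFP groups. Of 10 microglial markers 2 fell in mVEGF-C+mAdu against mVEGF-C+mIgG and all 10 were negative, and 3 fell against eGFP+mIgG. Their summed level was 493.1 to 497.4 CPM in mVEGF-C+mAdu, against 521.0 to 623.3 CPM in the other 9 libraries, and its part in the values of Psmb8 and Psmb9 was not tested.

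Of 31 genes of the ubiquitin and proteasome pathway outside the 44, 1 rose in mVEGF-C+mAdu against eGFP+mIgG and none fell, beside the 2.18% of all genes called there. Uba6, an enzyme that activates ubiquitin, had 40.2, 45.4 and 41.1 CPM in mVEGF-C+mAdu, 32.3, 34.8 and 35.3 in mVEGF-C+mIgG, 34.1, 37.2 and 36.7 in eGFP+mAdu and 32.8, 34.4 and 31.9 in eGFP+mIgG. The 3 mice with both treatments lay above the other 9. Its log2 change was 0.355 (SE 0.059, adjusted p 0.0101) against eGFP+mIgG and 0.304 (adjusted p 0.0482) against mVEGF-C+mIgG in edgeR's quasi-likelihood test, and 0.215 (adjusted p 0.0352) for the antibody over both vectors. The transcript has 37.4% GC, close to that of Psmc6, and with length and GC trends removed the change against eGFP+mIgG was 0.231 with an adjusted p of 0.0841. Without mice 3, 6, 9 and 12 it was 0.352 with an adjusted p of 0.56, with the choroid plexus covariate 0.461 with an adjusted p of 0.0764, and without mice 5 and 6 it passed (adjusted p 0.0176). The change against mVEGF-C+mIgG was lost with length and GC trends removed (0.247, adjusted p 0.1), with the covariate (0.401, adjusted p 0.277), with only the groups compared (adjusted p 0.12), without mice 5 and 6 (adjusted p 0.0642) and without mice 3, 6, 9 and 12 (0.348, adjusted p 0.997). That for the antibody over both vectors was lost with the trends removed (0.172, adjusted p 0.0789), with the covariate (0.251, adjusted p 0.0552), without mice 5 and 6 (0.176, adjusted p 0.175) and without mice 3, 6, 9 and 12 (0.220, adjusted p 0.835). Against eGFP+mIgG, Pomp, the maturation factor of the core, was at 0.003, Sem1, a small cap subunit, at 0.018, Adrm1, a ubiquitin receptor, at -0.164 and Nfe2l1 at -0.033, with adjusted p of 0.975, 0.867, 0.123 and 0.675.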

How the data were processed

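Whole-number counts per gene and library were deposited, without scaling. The tools FastQC, Trim Galore, STAR, Subread, featureCounts, edgeR and the build mm10 are named in the submitters' processing notes. Versions, gene annotation, strand and multi-mapping settings were not given in the sources used here. RNA was linearly amplified, per the labels' protocols. Names, principal transcripts and GC content came from GENCODE M21, which named 14791 of 14881 identifiers. The 44 genes include 12 that share exon bases with another gene, 5 of them over 10% (Psmb5, Psmb7, Psmc3ip, Psmd9 and Psmd13), so their reads may be shared.

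The model was edgeR 4.0.16 in R 4.3.3 on these counts (TMM scaling, filterByExpr, which removed no gene, 1 mean per group, all 12 libraries). Tests were edgeR's quasi-likelihood tests, two-sided, with p-values adjusted by Benjamini-Hochberg across 14881 genes in each of 8 contrasts and a threshold of 0.05. The common biological coefficient of variation was 5.16%. CPM are relative to TMM-scaled totals, log2 levels used a prior count of 2, and intervals are at 95%. Counting precision refers to reads and not to molecules. Alternatives were DESeq2 1.42.0 size factors, no filter on low counts, the DESeq2 Wald test, limma-voom (limma 3.58.1) with quality weights, only the groups compared, length and GC trends removed, a choroid plexus covariate, and libraries left out. The fit was tested on simulated data.

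The subunits and lists were chosen with earlier results of these data known. Named are every subunit that passed, the 2 of smallest p in each direction of each contrast, the highest and lowest per length in each role, Psmb5, Psmb6, Psmb7, Psmd4, Psmd14, Psmf1, Psme1, Psme2, Psme3 and Psme4, the 3 immunoproteasome genes, Pomp, Adrm1, Sem1, Nfe2l1, partners that passed, Vegfc and App. Further subunits at an unadjusted p under 0.05, and Psmg4, were named after their values were seen.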

Additional observations from a re-analysis of the deposited data

How the results depend on the processing

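No paired analysis was possible because the replicate numbers in the labels run from 1 to 12 and no number is shared between groups. The count of subunits past the threshold in mVEGF-C+mAdu against eGFP+mIgG was 1 in edgeR, beside 324 of all genes. It was 0 with length and GC trends removed, with the choroid plexus covariate and without libraries 3, 6, 9 and 12. The calls over all genes in these 3 settings were 68, 16 and 2, in that order. The call on Psmc6 was also lost without libraries 5 and 6, where library 4 alone stands for eGFP+mAdu. With 1 library left out the count of subunits ran from 0 to 1, beside 12 to 594 of all genes. It was 0 without any 1 of libraries 1, 2, 3, 5, 6, 9, 10 and 12. limma-voom called 3 there, 5 for mAdu against mIgG under mVEGF-C, and 2 each for the antibody and the vector averaged over the other treatment, but also called 2660, 1234, 1681 and 1789 of all genes in these comparisons. The causes were not tested. No setting but limma-voom gave a call in the other 7 contrasts.

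The median log2 change of the subunits without libraries 5 and 6 was 0.037 for mAdu against mIgG under eGFP, -0.023 for mVEGF-C against eGFP under mAdu and -0.016 for the interaction. In these values library 4 alone stands for eGFP+mAdu. With 1 library left out, the median ran from 0.002 to 0.043 for mAdu against mIgG under mVEGF-C, from 0.000 to 0.019 under eGFP, from -0.016 to 0.018 for mVEGF-C against eGFP under mIgG, from -0.004 to 0.021 under mAdu, from 0.001 to 0.026 for the combined treatment, from -0.009 to 0.030 for the interaction, from 0.004 to 0.020 for the antibody over both vectors and from -0.010 to 0.013 for the vector over both antibodies.

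Of the changes of single genes, 4 turned their sign under an alternative, none of which passed the test. These included Psmd11 for mAdu against mIgG under eGFP (0.000 in limma-voom) and Psmd3 for the vector over both antibodies (0.006 with length and GC trends removed). The others were Psmd4 for mAdu against mIgG under eGFP and for the antibody over both vectors (0.052 and 0.008 without libraries 5 and 6). There library 4 alone stood for eGFP+mAdu. For single genes, 773 values kept their direction and side of the threshold, 56 lost a call and 13 gained one. Only changes called in the main fit could lose a call. These were Psmc6 and Psmb9 against eGFP+mIgG, and Uba6 against eGFP+mIgG, against mVEGF-C+mIgG and for the antibody over both vectors. Most of the 773 values thus belong to changes without a call in the main fit, and do not show that calls were stable. Uba6 against eGFP+mIgG passed in 9 of 12 fits that left out 1 library, against mVEGF-C+mIgG in 3 and for the antibody over both vectors in 5. Depth limits Psmb9, Psmb8, Psmc3ip and Psmg4 most, with 24, 83, 44 and 101 reads in the library with the fewest.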
